A study of Rattus norvegicus with 5 samples.

Results

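Decorin (Dcn), lumican (Lum) and Sparc are 3 genes of the extracellular matrix, taken here as 3 of the 15074 genes that all 5 tables of the series list. They were chosen by name and are listed as ENSRNOG00000004554 (Dcn), ENSRNOG00000004610 (Lum) and ENSRNOG00000012840 (Sparc). The files give IDs without names, so the pairing of these 3 IDs with their symbols comes from outside the tables. The data are 5 single-cell RNA libraries made from cultured ventricular cells of wild-type Sprague Dawley rats at postnatal day 2 (P2). According to the labels, the cultures contained both myocytes and other cells.

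Cells carried 1 of 2 adenoviruses, one with the reporter GFP and the other with the transcription factor TBX18, and were collected at day 3 or day 14. The libraries were GFP at day 3, TBX18 at day 3, GFP at day 14, TBX18 at day 14 and TBX18 with 0.2 µM A83-01, an inhibitor of the TGF-beta receptor kinases. The last is placed at day 14 by its title and description, while its treatment label gives 3 days. The promoter that drives each transgene, and the number of animals pooled into a culture, are not given in the sources used here. The title states that TBX18 served to reprogram ventricular myocytes into pacemaker cells. Each group has 1 library, so differences between libraries were measured without any check between replicates, and no test between groups was made.

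Decorin and lumican are small leucine-rich proteoglycans that bind collagen fibrils and regulate their assembly and spacing, and decorin also binds TGF-beta. Sparc is a calcium- and collagen-binding glycoprotein of the matrix that takes part in collagen deposition and in the shape and adhesion of cells. In the heart, fibroblasts are the best known source of decorin and lumican, whereas Sparc is made by a wider range of cells.

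Dcn and Lum are neighbours on rat chromosome 7, with 0 protein-coding genes between them, and Sparc is on chromosome 10, in RefSeq's table for the GRCr8 assembly. The 250 bases before the annotated start of Lum and Sparc, from RefSeq on GRCr8, are shown because A83-01 blocks the pathway whose Smad proteins bind DNA, and because TBX18 itself binds DNA. Capitals mark CAGAC, the core of the Smad-binding element (GTCTG on the other strand), and GGAGGAGG, a repeat of GGA. The Lum sequence is chr7:34245456-34245705 on the plus strand, and the Sparc sequence is chr10:40038817-40039066 on the minus strand, both written 5′ to 3′ towards the gene.
Lum: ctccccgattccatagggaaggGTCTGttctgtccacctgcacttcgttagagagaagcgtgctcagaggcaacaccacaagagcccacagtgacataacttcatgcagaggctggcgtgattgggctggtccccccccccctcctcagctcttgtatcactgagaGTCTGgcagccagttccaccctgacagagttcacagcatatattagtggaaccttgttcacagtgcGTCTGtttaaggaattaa
Sparc: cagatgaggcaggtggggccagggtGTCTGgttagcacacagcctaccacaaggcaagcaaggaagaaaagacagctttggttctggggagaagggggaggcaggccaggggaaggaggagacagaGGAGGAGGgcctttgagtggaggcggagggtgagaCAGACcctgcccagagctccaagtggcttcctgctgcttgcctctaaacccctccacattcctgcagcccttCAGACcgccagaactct
Both windows held 3 matches to CAGAC, counting both strands. In Lum the first bases of the matches lay 228, 84 and 18 bases before the start, and in Sparc 225, 89 and 17 bases before it. At least 1 match to CAGAC was present in 42.9% of the 33469 rat promoter windows of the same length, so that a single match is common. The share of windows with 3 matches was not counted, so this background does not apply to the number of matches. GGAGGAGG had 1 match, in Sparc, and 6.96% of all windows held one. GGTGTGA, the core of a T-box site, had 0 matches in either window (3.22% of all windows), and TATAAA, the TATA box, had 0 matches (12.9% of all windows). These are matches of letters and do not show binding.

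Between 6103 and 7896 cells per library were kept, with median depths from 15354 to 28553 unique molecular identifiers (UMIs, tags that each mark 1 captured RNA molecule). The libraries shared between 7 and 20 cell barcodes, pair by pair. Clustering without Dcn, Lum, Sparc and the virus features gave 26 clusters, which joined into 2 compartments. Marker genes could not be looked up because the tables give no names, so the compartments carry no cell type name, and the labels of stromal cells and myocytes could not be checked. They are called virus-rich and virus-poor here by the level of virus RNA. EGFP stood at 92.9 counts per 1e6 UMIs (CPM) in the virus-rich cells of the GFP library at day 3 against 13.3 CPM in its virus-poor cells. The virus-rich compartment held 57.9% of cells in GFP at day 3, 50.3% in TBX18 at day 3, 33.3% in GFP at day 14, 16.0% in TBX18 at day 14 and 34.3% with A83-01.

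All 3 genes were higher in virus-poor than in virus-rich cells of every library, and the gap was wider for the proteoglycans than for Sparc, by an amount that depended on which cells were kept. A level is a gene's summed UMIs in CPM of all UMIs of the compartment. UMIs count molecules at their 3′ end and are not scaled by length, so that levels of the 3 genes are set side by side without a length correction. Whether capture or mapping differed between the 3 genes was not tested. Intervals are exact 95% Poisson or binomial intervals and cover counting error only.

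In virus-poor cells, Dcn stood at 560.0 CPM in GFP at day 3, 569 CPM in TBX18 at day 3, 410.2 CPM in GFP at day 14, 821 CPM in TBX18 at day 14 and 628 CPM with A83-01. The library of TBX18 at day 14 was highest and that of GFP at day 14 lowest, and the intervals of the 2 day 3 libraries overlapped (555 to 565 CPM and 564 to 574 CPM). Lum stood at 188 CPM, 213 CPM, 417 CPM, 399 CPM and 241 CPM in the same order of libraries. Lum was highest in both day 14 libraries without the inhibitor and lowest at day 3. Sparc was the most abundant of the 3, at 5121 CPM, 4162 CPM, 7662 CPM, 10127 CPM and 5313 CPM. Sparc in TBX18 at day 14 ranked 4 among the 15074 genes by UMIs, against rank 8 in GFP at day 14, rank 18 with A83-01, rank 25 in GFP at day 3 and rank 40 in TBX18 at day 3. Dcn ranked between 201 and 362, and Lum between 358 and 773.

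**Figure D1:**
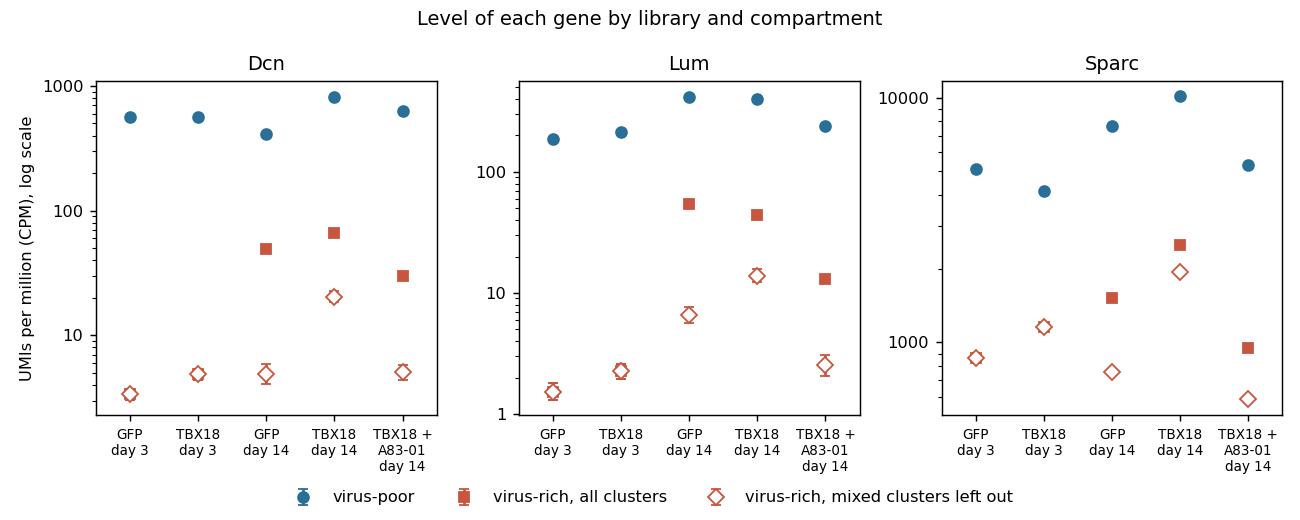
Level of each gene in each library, in CPM on a log axis, with exact 95% Poisson intervals for counting error, where blue circles are virus-poor cells, red squares all virus-rich cells, and open diamonds virus-rich cells without the clusters that hold the expression signatures of both compartments. Dcn in virus-poor cells ranged from 410.2 CPM in GFP at day 14 to 821 CPM in TBX18 at day 14, above every virus-rich value.

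In virus-rich cells, part of the signal came from a small share of cells. Clusters 19 and 21 held signature genes of both compartments, were found in the 3 day 14 libraries and had median depths from 21083 to 23574 UMIs, against 14533 to 19236 UMIs in the other virus-rich cells. They made up 13.2%, 12.5% and 13.4% of virus-rich cells in GFP, TBX18 and TBX18 with A83-01 at day 14, and held 91.9%, 73.5% and 85.5% of the compartment's Dcn UMIs. Whether these cells are droplets with 2 cells was not tested. At day 3 no virus-rich cluster was of this kind. Values for virus-rich cells are therefore given without these clusters first.

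Without them, Dcn in virus-rich cells stood at 3.37 CPM in GFP at day 3, 4.86 CPM in TBX18 at day 3, 4.91 CPM in GFP at day 14, 20.5 CPM in TBX18 at day 14 and 5.06 CPM with A83-01. The library of TBX18 at day 14 was highest, and its interval (18.4 to 22.7 CPM) overlapped none of the other 4. Lum stood at 1.53 CPM, 2.25 CPM, 6.55 CPM, 13.9 CPM and 2.52 CPM in the same order. Sparc stood at 868 CPM, 1159 CPM, 754 CPM, 1945 CPM and 588 CPM. With all clusters kept, Dcn in the day 14 libraries was 49.4 CPM in GFP, 66.0 CPM in TBX18 and 29.8 CPM with A83-01, and Sparc was 1521 CPM, 2501 CPM and 952 CPM. Leaving out single cells that hold both signatures as well put Dcn in TBX18 at day 14 at 16.7 CPM. In TBX18 at day 3, 187 such cells held 9.39% of the compartment's Dcn UMIs. Over all kept cells of both compartments, Dcn was at 252 CPM, 287 CPM, 289 CPM, 699 CPM and 402 CPM in the order of libraries above. Lum over all kept cells was at 84.8 CPM, 108 CPM, 295 CPM, 341 CPM and 155 CPM. The part of RNA carried over from virus-poor cells was not tested, in the virus-rich levels or in the ratios between libraries below.

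Dcn was 166-fold, 117-fold, 83.5-fold, 40.1-fold and 124-fold higher in virus-poor than in virus-rich cells, again in the order of libraries above and without the mixed clusters. The corresponding values for Lum were 122-fold, 94.9-fold, 63.6-fold, 28.6-fold and 95.9-fold. For Sparc they were 5.90-fold, 3.59-fold, 10.2-fold, 5.21-fold and 9.04-fold. With the mixed clusters kept, the folds at day 14 in GFP, TBX18 and TBX18 with A83-01 were 8.31, 12.4 and 21.1 for Dcn, 7.65, 9.06 and 18.4 for Lum, and 5.04, 4.05 and 5.58 for Sparc. Mixed clusters were picked by genes that differ between the compartments, and left out of virus-rich cells alone. Leaving them out therefore favours wider gaps by construction. The folds at day 3 rest on leaving out cells with high doublet scores. With those cells kept, virus-rich Dcn was 27.4 CPM in GFP and 44.5 CPM in TBX18, beside 559 CPM and 574 CPM in virus-poor cells. In every library Sparc had the smallest gap of the 3 genes, with or without the mixed clusters.

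Barcodes with fewer than 500 genes, present in the day 3 tables alone, were used as a gauge of free RNA, although what these barcodes are was not tested. They carried 4.03 CPM of Dcn in GFP and 4.05 CPM in TBX18, from 21 and 12 UMIs, levels whose intervals (2.49 to 6.16 CPM and 2.09 to 7.07 CPM) included those of the virus-rich cells. Lum was likewise at 2.11 CPM and 1.69 CPM in these barcodes. Whether Dcn in virus-rich cells at day 3 lay within these intervals depended on the processing. At clustering resolution 0.5 it was 4.84 CPM in GFP and 9.42 CPM in TBX18, and at resolution 2 it was 6.48 CPM and 10.4 CPM, so that the TBX18 value was above its interval at both and the GFP value at resolution 2. Lum stayed within its intervals (1.05 to 3.78 CPM and 0.548 to 3.94 CPM) at both resolutions. With no cells left out as doublets, Dcn was 27.4 CPM in GFP and 44.5 CPM in TBX18, and Lum 10.8 CPM and 17.3 CPM, all above them. Sparc was at 32.0 CPM and 32.4 CPM in these barcodes, far below the 868 CPM and 1159 CPM of virus-rich cells. Over all kept cells of GFP and TBX18 at day 3, Sparc was at 2770 CPM and 2665 CPM. Median depths were 6613 and 10122 UMIs in the barcodes with few genes, against 22304 and 29657 UMIs in virus-rich cells. CPM is a share of that depth, so overlap in CPM does not mean equal Dcn per barcode. Unthinned, 2.74% and 4.11% of the barcodes with few genes held a Dcn UMI, against 6.78% and 11.7% of virus-rich cells. The day 14 tables start at 1993 genes per barcode and offer no such gauge.

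The proportions of the 3 RNAs differed between compartments. Virus-poor cells held 10.9, 13.7, 5.35, 8.11 and 11.8 Dcn UMIs per 100 Sparc UMIs in the order of libraries above, and virus-rich cells without the mixed clusters held 0.388, 0.419, 0.652, 1.05 and 0.860. Barcodes with few genes held 12.6 per 100 (7.58 to 19.9) in GFP at day 3 and 12.5 per 100 (6.24 to 22.9) in TBX18 at day 3. The proportion in virus-rich cells was below both others, and the source of their Dcn RNA was not tested. Lum per 100 Dcn UMIs in virus-poor cells was 33.5, 37.5, 102, 48.5 and 38.4, so that Lum matched Dcn in GFP at day 14 alone.

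**Figure D2:**
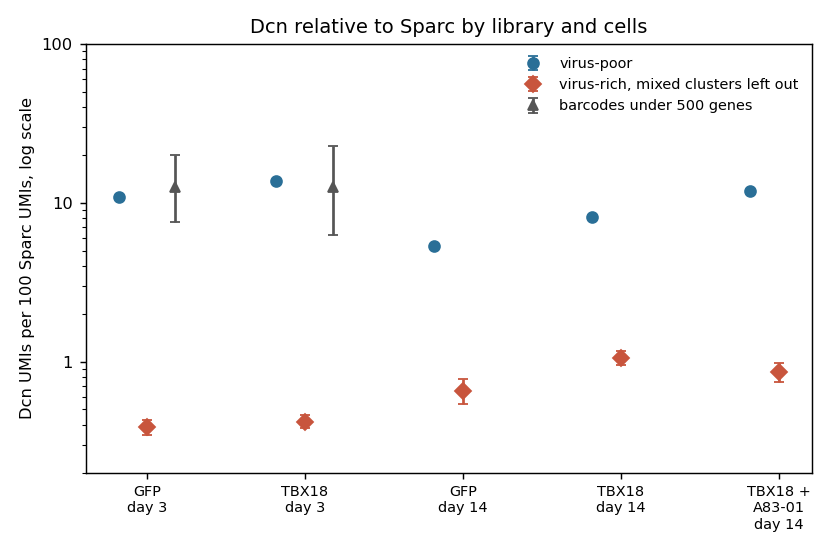
Dcn UMIs per 100 Sparc UMIs on a log axis, by library and group of cells, with exact 95% intervals for counting error. Virus-poor cells (circles) lay between 5.35 and 13.7, barcodes with few genes (triangles, day 3 alone) near 12.5, and virus-rich cells without the mixed clusters (diamonds) between 0.388 and 1.05.

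At day 3, TBX18 and GFP differed little in virus-poor cells. Dcn was nearly equal (560.0 CPM in GFP and 569 CPM in TBX18, log2 ratio 0.02, interval 0.00 to 0.04). Lum was slightly higher with TBX18 (188 CPM and 213 CPM, log2 ratio 0.18) and Sparc lower (5121 CPM and 4162 CPM, log2 ratio -0.30). None of the 3 genes was past 2-fold, where 1.92% of 4997 genes were, and the median log2 ratio of the 3 genes was 0.02, beside -0.08 over all genes. Sparc was lower with TBX18 in 5 of the 5 virus-poor clusters that had at least 50 cells in both libraries, with log2 ratios from -0.35 to -0.12. Dcn and Lum were each higher in 3 of these clusters and lower in 2. For Lum the log2 ratios were -0.43 in cluster 9, -0.37 in cluster 12 and 0.63 in cluster 6, while the intervals in clusters 14 and 20 included 0. Dcn ranged from 296 CPM in GFP against 657 CPM in TBX18 in cluster 6 to 538 CPM against 419 CPM in cluster 12.

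At day 14 the 3 genes parted in virus-poor cells. Dcn was 2.0-fold higher with TBX18 than with GFP (821 CPM and 410.2 CPM, log2 ratio 1.00, interval 0.98 to 1.02). Sparc was 1.32-fold higher (10127 CPM and 7662 CPM, log2 ratio 0.40). Lum was nearly equal over the whole compartment, at 399 CPM and 417 CPM (log2 ratio -0.06), and its sign turned, to 0.041, when each cell was weighted equally. Dcn alone of the 3 was past 2-fold, as were 2.74% of all genes, and 2.26% of all genes had a larger ratio. It sat at that mark. Median-of-ratios scaling, which moved all ratios of this comparison by -0.13, put it at 0.87, and leaving out cluster 25, described below, put it at 0.96.

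Within clusters that both day 14 libraries shared, all 3 genes were higher with TBX18, Lum included. In cluster 5, Dcn was at 463 CPM against 196 CPM, Lum at 310 CPM against 225 CPM and Sparc at 11023 CPM against 8703 CPM. In cluster 4 the values for Lum were 538 CPM and 455 CPM, and in cluster 13 they were 308 CPM and 278 CPM. Log2 ratios over the 4 shared clusters ran from 0.70 to 4.64 for Dcn, 0.15 to 3.29 for Lum and 0.34 to 2.94 for Sparc. The highest of each came from cluster 14, which held few UMIs of these genes in GFP. Over the other 3 clusters the ratios ran from 0.70 to 1.24, 0.15 to 0.46 and 0.34 to 0.43. The shares of the clusters also differed. Cluster 4 held 83.8% of virus-poor cells in GFP and 1.18% in TBX18, and cluster 5 held 8.53% and 37.9%, while their part in the Lum level of the whole compartment was not tested. Libraries were clustered without batch correction, and a cluster mostly of 1 library may reflect that library. The largest virus-poor cluster of TBX18 at day 14, cluster 2 with 3602 cells, had no counterpart of 50 cells in GFP and held 1123 CPM of Dcn, 489 CPM of Lum and 9710 CPM of Sparc.

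**Figure D3:**
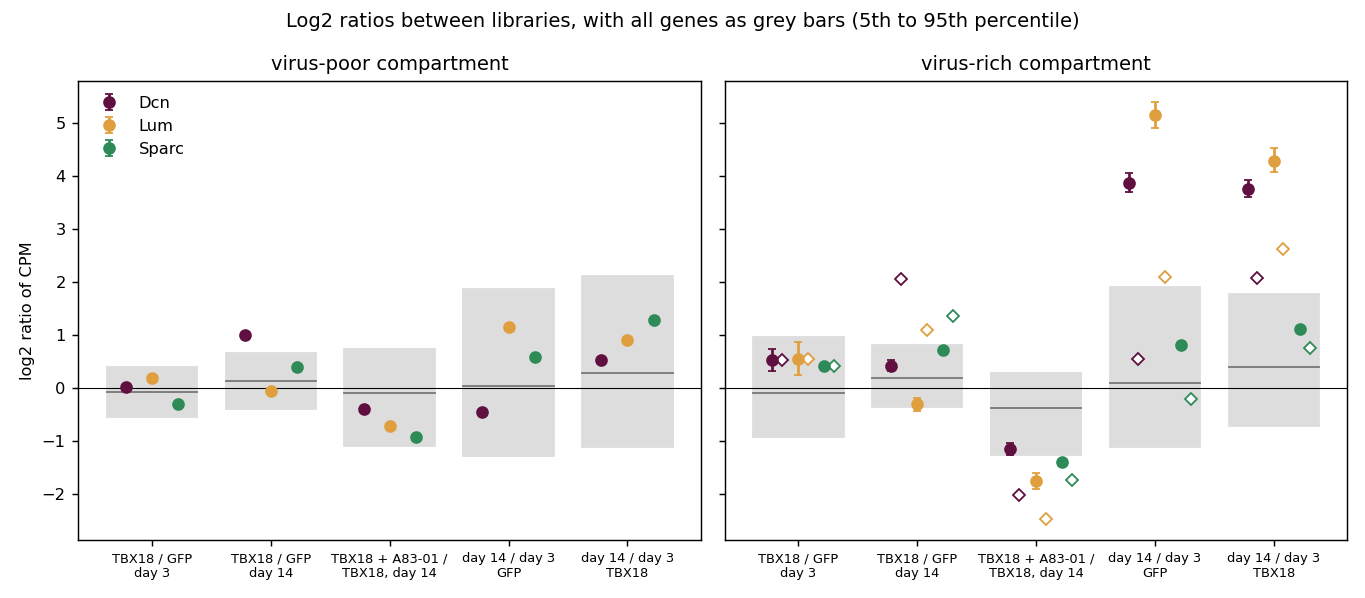
Log2 ratios of CPM between libraries for Dcn, Lum and Sparc in virus-poor (left) and virus-rich cells (right), where filled circles carry exact 95% intervals for counting error, open diamonds are virus-rich values without the mixed clusters, grey bars span the 5th to 95th percentile of all genes whose mean reached 20 CPM and the line in each is their median. Dcn in virus-poor cells at day 14 (log2 ratio 1.00) lay above the grey bar, and all 3 genes lay below 0 with A83-01.

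In virus-rich cells all 3 genes were somewhat higher with TBX18 at day 3, with log2 ratios of 0.53 for Dcn, 0.55 for Lum and 0.42 for Sparc, of which Dcn and Lum rest on levels under 5 CPM. Most of these cells lay in clusters that reached 50 cells in 1 of these 2 libraries alone, 3 and 15 in GFP and 7, 16 and 18 in TBX18. In cluster 22, the one with at least 50 cells in both, Sparc was lower with TBX18 (185 CPM) than with GFP (527 CPM), a log2 ratio of -1.51 with an interval of -1.91 to -1.13. Dcn there was 7.19 CPM with TBX18 and 7.28 CPM with GFP, from 3 UMIs in each (interval of the log2 ratio -2.92 to 2.88). Cluster 22 held 2.34% of virus-rich cells with TBX18 (72 cells) and 2.41% with GFP (107 cells). Its median depths were 4449.5 and 3233 UMIs, against 29657 and 22304 UMIs over the compartment. Without the mixed clusters Sparc alone had the mean of 20 CPM over the libraries needed for a count over all genes. It was not past 2-fold at day 3, where 8.53% of 4395 genes were, or 8.78% of 4500 genes with the mixed clusters kept. At day 14 without the mixed clusters, the ratios were 2.06 for Dcn (4.91 CPM in GFP and 20.5 CPM in TBX18), 1.09 for Lum (6.55 CPM and 13.9 CPM) and 1.37 for Sparc (754 CPM and 1945 CPM). Sparc was past 2-fold, as were 5.55% of 4395 genes. With the mixed clusters kept, the ratios were 0.42, -0.31 and 0.72, so that the sign for Lum turned and Sparc was not past 2-fold, where 3.76% of 4500 genes were. Within cluster 10, which held 387 cells of GFP and 1012 of TBX18, Sparc was 1296 CPM and 1930 CPM (log2 ratio 0.57). Dcn in that cluster was 8.20 CPM and 18.5 CPM, and Lum was 12.0 CPM and 13.1 CPM (log2 ratio 0.13, interval -0.27 to 0.54).

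All 3 genes were lower with A83-01 in virus-poor cells. Sparc showed the largest difference, at 5313 CPM with the inhibitor against 10127 CPM with TBX18 alone (log2 ratio -0.93, interval -0.94 to -0.93). Lum followed with 241 CPM against 399 CPM (log2 ratio -0.72), and Dcn with 628 CPM against 821 CPM (log2 ratio -0.39). None of the 3 was past 2-fold, where 8.61% of all genes were. The median of the 3 was -0.72, beside -0.09 over all genes, and 93.2% of all genes had a larger ratio than Sparc. Cluster 13 was the one virus-poor cluster with at least 50 cells in both libraries. There Dcn was 514 CPM against 587 CPM, Lum 218 CPM against 308 CPM and Sparc 5594 CPM against 9290 CPM.

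In virus-rich cells the log2 ratios with A83-01 were farther from 0. No virus-rich cluster had 50 cells in both libraries, with 83.1% of the cells in cluster 8 with A83-01 and 80.2% in cluster 10 without it. Without the mixed clusters Sparc was 588 CPM with the inhibitor against 1945 CPM (log2 ratio -1.73), Dcn 5.06 CPM against 20.5 CPM (log2 ratio -2.02) and Lum 2.52 CPM against 13.9 CPM (log2 ratio -2.47). Sparc, the one gene of the 3 with the mean of 20 CPM, was past 2-fold, as were 11.6% of 4395 genes. With all clusters the ratios were -1.39, -1.15 and -1.75, in the order Sparc, Dcn and Lum, and Sparc was past 2-fold, as were 10.3% of all genes. The median over all genes in that comparison was -0.37. With median-of-ratios scaling, which shifted all ratios by 0.39, Sparc was at -1.0 and Dcn at -0.75.

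Between day 3 and day 14 the genes took different courses in virus-poor cells. These tables also differ in unit, in the filter on cells and in depth, so that time cannot be told apart from processing. In GFP, Dcn was lower at day 14 (410.2 CPM against 560.0 CPM, log2 ratio -0.45), while Lum was 2.22-fold higher (417 CPM against 188 CPM) and Sparc 1.5-fold higher (7662 CPM against 5121 CPM). In TBX18, all 3 were higher at day 14, with log2 ratios of 0.53 for Dcn, 0.90 for Lum and 1.28 for Sparc. One of the 3 genes was past 2-fold in each virus, Lum in GFP and Sparc in TBX18. The background was 27.1% of all genes in GFP and 31.6% in TBX18, so that such a difference was common. The comparisons with GFP at day 14 and with TBX18 at day 14 share those libraries with the comparisons between viruses.

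In virus-rich cells without the mixed clusters, Dcn and Lum were higher at day 14 than at day 3 in TBX18 (log2 ratios 2.07 and 2.63), and Sparc was at 0.75. In GFP the ratios were 0.55 for Dcn, 2.10 for Lum and -0.20 for Sparc. With the mixed clusters kept, the 3 ratios in GFP were 3.87, 5.15 and 0.81, and in TBX18 they were 3.76, 4.29 and 1.11. Dcn and Lum reached the mean of 20 CPM only through the day 14 libraries with those clusters, so that they are not counted. Sparc was past 2-fold in TBX18 with the mixed clusters (20.8% of all genes) and not without them (19.4%), and not in GFP with them (18.8%) or without them (18%). The sign for Sparc in GFP thus turned with those clusters.

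Single cells were compared after thinning each to 5000 UMIs. This left out between 0 and 128 shallower cells in a compartment of a library. Nearly all virus-poor cells had a Sparc UMI, 93.0%, 96.3%, 97.3%, 99.7% and 99.2% in the order of libraries above. Dcn was found in 73.7%, 75.9%, 72.7%, 85.4% and 82.6% of them, and Lum in 42.7%, 47.6%, 70.7%, 67.4% and 53.2%. Without thinning the shares were between 85.8% and 94.8% for Dcn and between 65.6% and 87.1% for Lum. In virus-rich cells without the mixed clusters the thinned shares for Dcn were 1.97%, 2.45%, 3.08%, 9.33% and 2.26%, and for Lum 0.834%, 1.27%, 2.74%, 7.61% and 1.13%. Unthinned shares for Dcn in barcodes with few genes were 2.74% in GFP and 4.11% in TBX18 at day 3, at median depths of 6613 and 10122 UMIs. The unthinned shares in virus-rich cells, to be set beside these, were 6.78% and 11.7%, at median depths of 22304 and 29657 UMIs. Sparc was found in 96.5%, 97.6%, 92.2%, 99.5% and 87.9% of virus-rich cells.

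Most virus-poor cells held a few Dcn UMIs, and the spread was widest in TBX18 at day 14. The median was 2 UMIs in both day 3 libraries, 1 in GFP at day 14 and 3 in both TBX18 libraries at day 14, while the highest cell held 77 UMIs in TBX18 at day 14 and between 18 and 35 in the other 4 libraries. The variance divided by the mean (Fano factor) of Dcn was 6.82 in TBX18 at day 14, against 2.37 to 3.49 in the others. These values for TBX18 at day 14 include the 61 cells of cluster 25, described below, which held 5090 CPM of Dcn. The spread without that cluster was not computed. Median Sparc was 26, 20, 37, 49 and 25 UMIs. Its curves were shifted nearly as a whole between libraries, apart from a small foot of cells near 0 that was largest in GFP at day 3.

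**Figure D4:**
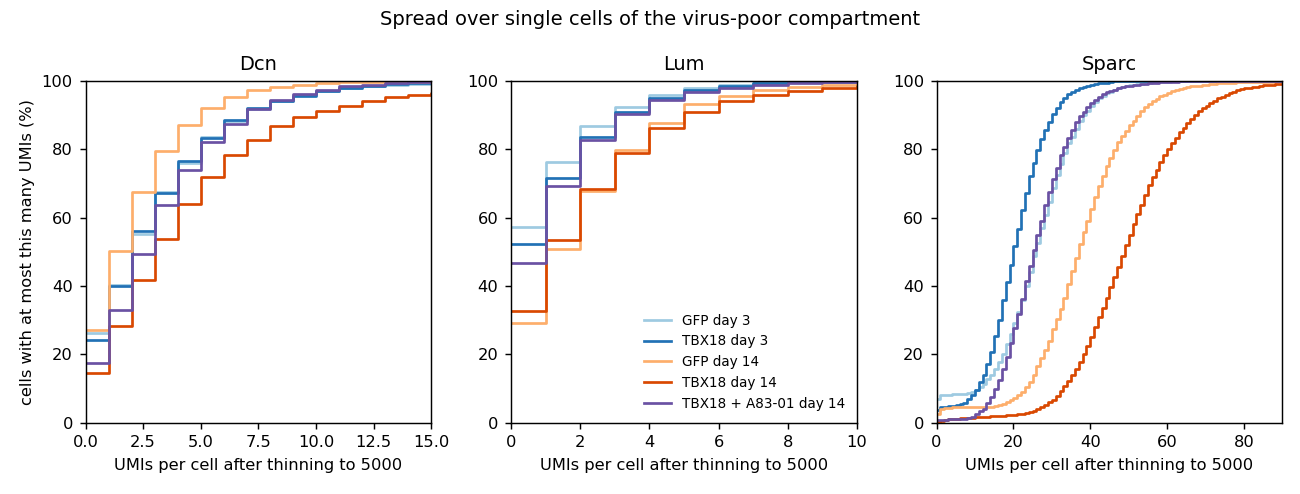
Share of virus-poor cells (percent) that held at most the number of UMIs on the x axis after thinning to 5000 UMIs, for Dcn, Lum and Sparc, 1 line per library. The lines of TBX18 at day 14 lie farthest to the right for Dcn, whose axis stops short of the highest cell at 77 UMIs, and for Sparc, whose medians run from 20 to 49 UMIs.

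Dcn and Lum tended to occur in the same virus-poor cells. Lum was found in 51.8% of cells with a Dcn UMI and 17.5% of cells without one in GFP at day 3, and in 56.8% and 18.8% in TBX18 at day 3. At day 14 the shares were 75.9% and 56.7% in GFP, 72.1% and 39.6% in TBX18, and 58.1% and 30% with A83-01. The cells had been thinned to the same depth. Before thinning, the median depths with and without a Dcn UMI were farthest apart in TBX18 at day 14, at 15005 and 17951 UMIs. Sparc was found in about 99.9% of cells with a Dcn UMI in every library. Among cells without one the shares were 73.8%, 85.0%, 90.5%, 98.6% and 95.7% in the order of libraries above.

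The genes came apart in a few clusters. Over the 23 points given by virus-poor clusters in libraries where they had at least 50 cells, Dcn ranged from 6.06 to 5090 CPM with a median of 449 CPM. Lum ranged from 8.08 to 538 CPM and Sparc from 117 to 11023 CPM. Cluster 25, with 61 cells of TBX18 at day 14, held the 5090 CPM of Dcn together with 178 CPM of Lum and 2900 CPM of Sparc, each of the latter below the average of its compartment. It was 0.920% of virus-poor cells and held 3.13% of their Dcn UMIs, and without it Dcn stood at 799.8 CPM. Though placed in the virus-poor compartment, it carried 24.2 CPM of virus RNA, summed over all virus features. Taken singly, ZsGFP and hTBX18 stood at 8.25 and 9.03 CPM in virus-rich cells of that library, and at 0.966 and 1.01 CPM in virus-poor cells. The sum in cluster 25 rests on 61 cells, and no interval was computed for it. The median depth of cluster 25 was 8318 UMIs, against 15310.5 UMIs over its compartment. Cluster 14 was low in all 3 genes in 4 libraries, with 6.06 CPM of Dcn, 8.08 CPM of Lum and 117 CPM of Sparc in GFP at day 14 and 87.1 CPM, 36.4 CPM and 1108 CPM in GFP at day 3. Cluster 20, in the day 3 libraries, had Sparc near the average of its compartment (4517 CPM in GFP and 4156 CPM in TBX18) but only 114 CPM and 153 CPM of Dcn. Cluster 17, with 451 cells of the A83-01 library, likewise had 5322 CPM of Sparc with 134 CPM of Dcn and 82.9 CPM of Lum.

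**Figure D5:**
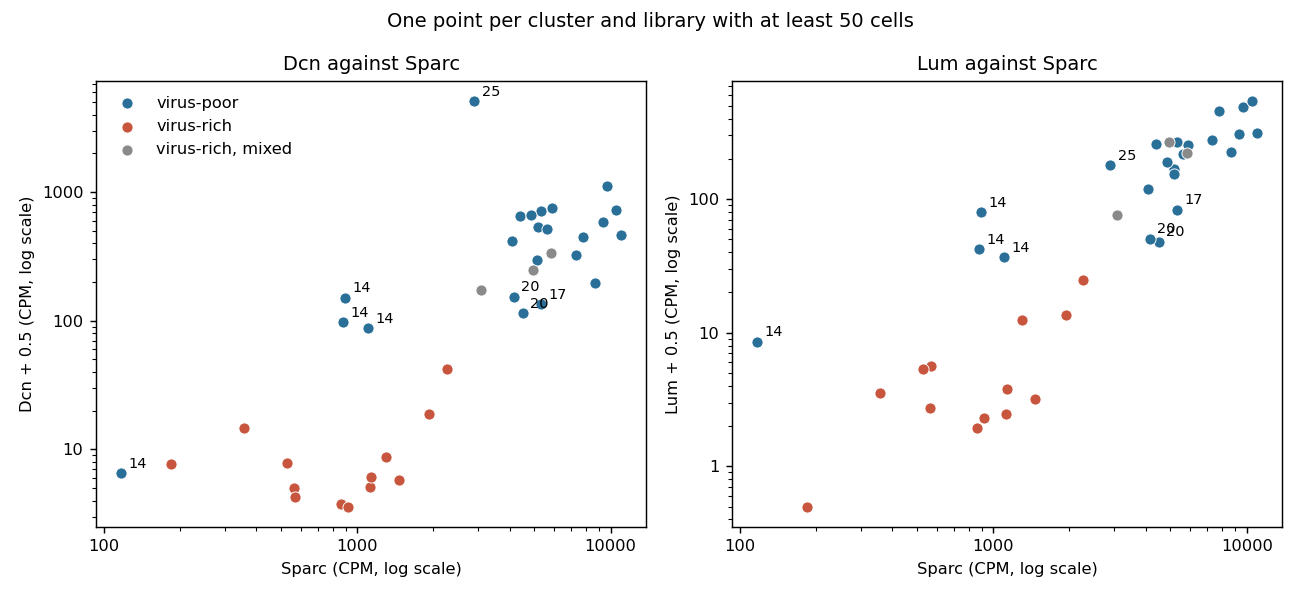
Level of Dcn (left) and Lum (right), each plus 0.5 CPM, against Sparc, on log axes, for clusters with at least 50 cells in a library, where blue points are virus-poor clusters, red points virus-rich and grey points virus-rich clusters with both signatures, and numbers mark clusters described in the text. Cluster 25 lies far above the others in Dcn (5090 CPM), clusters 17 and 20 have high Sparc with little Dcn or Lum, and cluster 14 is low in all 3.

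Virus-poor cells with a transgene UMI, few in number, held less Dcn than those without one at day 3, and more of it in both TBX18 libraries at day 14. A transgene UMI means one of EGFP in GFP libraries, and one of ZsGFP or hTBX18 in TBX18 libraries. At day 3 thinned Dcn was 347 CPM in 91 cells with EGFP and 591 CPM in 3086 cells without (log2 ratio -0.77, interval -1.0 to -0.54). In TBX18 at day 3 it was 322 CPM in 46 cells and 589 CPM in 2936 cells (log2 ratio -0.87). Virus-poor cells that hold both signatures had a Dcn level of 177 CPM in GFP (70 cells) and 270 CPM in TBX18 (45 cells) at day 3, with median depths of 32878 and 36916 UMIs, and their part in this difference was not tested. At day 14 Dcn was 446 CPM with EGFP in 197 cells and 415 CPM without (log2 ratio 0.10, interval -0.04 to 0.24). In TBX18 at day 14 it was 2095 CPM in 55 cells and 901 CPM in 6576 cells (log2 ratio 1.22), and 0.94 (0.80 to 1.08) without cluster 25. With A83-01 it was 855 CPM in 33 cells and 634 CPM in 4675 cells (log2 ratio 0.43, interval 0.18 to 0.67). In virus-rich cells without the mixed clusters, Sparc was 2467 CPM with and 1867 CPM without a transgene UMI in TBX18 at day 14 (69 and 1035 cells), and 1352 CPM and 1099 CPM in TBX18 at day 3. In GFP it was 896 CPM and 845 CPM at day 3, and 709 CPM and 751 CPM at day 14.

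The likeness of the 3 genes to each other depended on which cells were compared. The first set was 10 points, 2 compartments in 5 libraries, with the mixed clusters kept. There Pearson's r of log2 levels was 0.98 between Dcn and Lum, 0.92 between Dcn and Sparc and 0.92 between Lum and Sparc. Lum ranked 34 among 4960 genes by likeness to Dcn, and Sparc ranked 371. Both sets of points rest on the same 5 libraries, and the first is dominated by the difference between compartments. Over the 5 virus-poor points alone, r was -0.02 between Dcn and Lum, 0.28 between Dcn and Sparc and 0.89 between Lum and Sparc. Even so, Sparc ranked 645 among 4996 genes by likeness to Lum. The gene most like Dcn over the 10 points was ENSRNOG00000004737 (r = 1.00 to 2 decimals) and the one most like Lum was ENSRNOG00000012660 (r = 1.00), neither of which the files pair with a name.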

How the data were processed

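Single-cell libraries made with 10x Genomics 3′ chemistry from 5 cultures were analysed. Per the submitters' processing notes, STAR 2.7.8a, Partek and the rat build Rnor_6.0 were used. The day 3 tables hold estimated counts of UMIs as deposited by the authors. The day 14 tables hold log2 values as deposited by the authors, read here as log2 of CPM plus 1 per cell from the values themselves. UMIs were recovered from them by taking the commonest nonzero value of a cell as 1 UMI. The design had assumed counts in every table.

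Barcodes needed at least 500 genes to be kept, and left out were also the 6% of cells per library with the highest Scrublet score, because its automatic threshold marked few cells (0% to 3.14%). Cells of all libraries were clustered together in scanpy 1.11.5 with leidenalg 0.10.2 (2000 variable genes, 30 principal components, 20 neighbours, resolution 1), without batch correction and without Dcn, Lum, Sparc and the virus features. Clusters were joined into 2 compartments, of which virus-rich is that where EGFP was found in more of the GFP day 3 cells. Mixed clusters and cells lay between 0.2 and 0.8 on a scale set by 100 signature genes per compartment. UMIs were summed per library and compartment and expressed as CPM. With 1 library per group no test was made. Ratios were set against those of all genes whose mean reached 20 CPM, with a pseudocount of 0.5 CPM, and calls mean a ratio past 2-fold. TMM factors came from edgeR 4.0.16. The ratio step was tested on simulated data.

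Of 17060 gene IDs, 0 could be matched to a symbol through the reference table, so planned marker and pathway lists were not applied. Genes most like a member were named by the highest Pearson correlation of log2 levels. The 3 genes and all lists were chosen with earlier results of these data known. Total UMIs per library ran from 104781558 to 202024200.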

Additional observations from a re-analysis of the deposited data

Results flagged for a closer look

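Each difference in this paragraph is between 2 ratios of opposite sign, from 1 library a group, and was not tested. Sparc for TBX18 over GFP in virus-poor cells had a log2 ratio of -0.30 at day 3 and 0.40 at day 14. Lum for the same viruses and cells had 0.18 at day 3 and -0.06 at day 14, and in virus-rich cells 0.55 and -0.31, the last with the mixed clusters. Dcn between day 14 and day 3 in virus-poor cells had -0.45 in GFP and 0.53 in TBX18. Sparc for TBX18 over GFP at day 3 had 0.42 in virus-rich and -0.30 in virus-poor cells. Dcn between day 14 and day 3 in GFP had 3.87 in virus-rich cells, mixed clusters included, and -0.45 in virus-poor cells.

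Barcodes left out for having fewer than 500 genes held RNA of all 3 genes above the level that a count of 0 allows. In GFP at day 3 they held 4.03 CPM of Dcn, 2.11 CPM of Lum and 32.0 CPM of Sparc. In TBX18 at day 3 they held 4.05 CPM of Dcn, 1.69 CPM of Lum and 32.4 CPM of Sparc.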

How the results depend on the processing

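Of 870 values computed under alternatives, 451 were counted as unchanged, 413 as moved and 6 turned sign. Unchanged meant within counting error, except for the 40 counts of genes past 2-fold, where it meant within a fixed factor of the reported count. Some values could not change. Leaving out mixed clusters alters nothing in virus-poor cells or at day 3, and leaving out cluster 25 alters nothing in virus-rich cells. The tally is therefore not a measure of robustness. The sign of Lum for TBX18 over GFP at day 14 turned in virus-rich cells, to 0.10 with each cell weighted equally, 1.09 without the mixed clusters and 1.20 without those and single mixed cells, as did 3 of the values below (Lum in virus-poor cells with each cell weighted equally, and Sparc in virus-rich cells between days in GFP without mixed clusters or cells). The cause was not tested. With median-of-ratios scaling, log2 ratios in virus-poor cells were 0.11 (Dcn), 0.28 (Lum) and -0.21 (Sparc) for TBX18 over GFP at day 3, 0.87 (Dcn), -0.20 (Lum) and 0.27 (Sparc) for TBX18 over GFP at day 14, -0.27 (Dcn), -0.61 (Lum) and -0.81 (Sparc) for A83-01, -0.49 (Dcn), 1.11 (Lum) and 0.54 (Sparc) for day 14 over day 3 in GFP, 0.26 (Dcn), 0.63 (Lum) and 1.02 (Sparc) for day 14 over day 3 in TBX18. With median-of-ratios scaling, log2 ratios in virus-rich cells were 0.50 (Sparc) for TBX18 over GFP at day 3, 0.51 (Sparc) for TBX18 over GFP at day 14, -1.0 (Sparc) for A83-01, 0.71 (Sparc) for day 14 over day 3 in GFP, 0.73 (Sparc) for day 14 over day 3 in TBX18. With TMM scaling, log2 ratios in virus-poor cells were 0.10 (Dcn), 0.26 (Lum) and -0.23 (Sparc) for TBX18 over GFP at day 3, 0.86 (Dcn), -0.21 (Lum) and 0.26 (Sparc) for TBX18 over GFP at day 14, -0.27 (Dcn), -0.61 (Lum) and -0.82 (Sparc) for A83-01, 0.56 (Sparc) for day 14 over day 3 in GFP, 0.30 (Dcn), 0.67 (Lum) and 1.05 (Sparc) for day 14 over day 3 in TBX18. With TMM scaling, log2 ratios in virus-rich cells were 0.49 (Sparc) for TBX18 over GFP at day 3, 0.52 (Sparc) for TBX18 over GFP at day 14, -1.01 (Sparc) for A83-01, 0.71 (Sparc) for day 14 over day 3 in GFP, 0.74 (Sparc) for day 14 over day 3 in TBX18. With no cells left out as doublets, log2 ratios in virus-poor cells were 0.41 (Sparc) for TBX18 over GFP at day 14, 1.29 (Sparc) for day 14 over day 3 in TBX18. With no cells left out as doublets, log2 ratios in virus-rich cells were 0.39 (Sparc) for TBX18 over GFP at day 3, 0.60 (Sparc) for TBX18 over GFP at day 14, -1.34 (Sparc) for A83-01, 1.00 (Sparc) for day 14 over day 3 in GFP, 1.20 (Sparc) for day 14 over day 3 in TBX18. With the range of genes and UMIs of the day 14 cells at both days, log2 ratios in virus-poor cells were 0.25 (Lum) and -0.37 (Sparc) for TBX18 over GFP at day 3, -0.57 (Dcn) and 0.99 (Lum) for day 14 over day 3 in GFP, 0.39 (Dcn), 0.68 (Lum) and 1.35 (Sparc) for day 14 over day 3 in TBX18. With the range of genes and UMIs of the day 14 cells at both days, log2 ratios in virus-rich cells were 1.13 (Sparc) for day 14 over day 3 in TBX18. At clustering resolution 0.5, log2 ratios in virus-poor cells were -0.31 (Sparc) for TBX18 over GFP at day 3, -0.48 (Dcn) and 0.57 (Sparc) for day 14 over day 3 in GFP, 0.51 (Dcn) for day 14 over day 3 in TBX18. At clustering resolution 0.5, log2 ratios in virus-rich cells were 0.44 (Sparc) for TBX18 over GFP at day 3, 0.74 (Sparc) for day 14 over day 3 in GFP, 1.03 (Sparc) for day 14 over day 3 in TBX18. At clustering resolution 2, log2 ratios in virus-poor cells were -0.31 (Sparc) for TBX18 over GFP at day 3, -0.48 (Dcn), 1.12 (Lum) and 0.57 (Sparc) for day 14 over day 3 in GFP, 0.51 (Dcn) and 0.88 (Lum) for day 14 over day 3 in TBX18. At clustering resolution 2, log2 ratios in virus-rich cells were 0.72 (Sparc) for day 14 over day 3 in GFP, 1.03 (Sparc) for day 14 over day 3 in TBX18. With each cell weighted equally, log2 ratios in virus-poor cells were -0.32 (Sparc) for TBX18 over GFP at day 3, 1.10 (Dcn), 0.041 (Lum) and 0.41 (Sparc) for TBX18 over GFP at day 14, -0.49 (Dcn) and -0.92 (Sparc) for A83-01, 1.11 (Lum) for day 14 over day 3 in GFP, 0.65 (Dcn), 0.94 (Lum) and 1.31 (Sparc) for day 14 over day 3 in TBX18. With each cell weighted equally, log2 ratios in virus-rich cells were 0.90 (Sparc) for TBX18 over GFP at day 14, -1.42 (Sparc) for A83-01, 0.61 (Sparc) for day 14 over day 3 in GFP, 1.09 (Sparc) for day 14 over day 3 in TBX18. Without the mixed clusters, log2 ratios in virus-rich cells were 1.37 (Sparc) for TBX18 over GFP at day 14, -1.73 (Sparc) for A83-01, -0.20 (Sparc) for day 14 over day 3 in GFP, 0.75 (Sparc) for day 14 over day 3 in TBX18. Without the mixed clusters and single mixed cells, log2 ratios in virus-poor cells were -0.31 (Sparc) for TBX18 over GFP at day 3, -0.48 (Dcn) and 0.56 (Sparc) for day 14 over day 3 in GFP, 1.28 (Sparc) for day 14 over day 3 in TBX18. Without the mixed clusters and single mixed cells, log2 ratios in virus-rich cells were 0.40 (Sparc) for TBX18 over GFP at day 3, 1.32 (Sparc) for TBX18 over GFP at day 14, -1.63 (Sparc) for A83-01, -0.27 (Sparc) for day 14 over day 3 in GFP, 0.65 (Sparc) for day 14 over day 3 in TBX18. Without cluster 25, log2 ratios in virus-poor cells were 0.96 (Dcn) and 0.41 (Sparc) for TBX18 over GFP at day 14, -0.35 (Dcn) and -0.94 (Sparc) for A83-01, 0.49 (Dcn) for day 14 over day 3 in TBX18.

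Genes past 2-fold with the minimum mean of 20 CPM numbered 96, 137, 430, 1353 and 1581 in virus-poor cells and 395, 169, 463, 847 and 935 in virus-rich cells, for TBX18 over GFP at day 3 and day 14, A83-01, and day 14 over day 3 in GFP and TBX18. With a minimum mean of 5 CPM, genes past 2-fold in virus-poor cells numbered 171, 300, 849, 2458 and 2993 in the 5 comparisons in the order above. With a minimum mean of 5 CPM, genes past 2-fold in virus-rich cells numbered 841, 384, 1117, 1733 and 1900 in the 5 comparisons in the order above. With a minimum mean of 100 CPM, genes past 2-fold in virus-poor cells numbered 29, 37, 123, 383 and 421 in the 5 comparisons in the order above. With a minimum mean of 100 CPM, genes past 2-fold in virus-rich cells numbered 113, 61, 94, 271 and 249 in the 5 comparisons in the order above. Median-of-ratios scaling gave 248 for A83-01 in virus-rich cells. The alternatives that needed named marker genes, and one with no minimum of genes per barcode, were not run, and a minimum of 1000 genes was used instead of the latter. Leaving out mixed clusters, mixed cells or cluster 25 was chosen after seeing the data. No paired analysis was possible because each group has 1 library. With no cells left out as doublets, virus-rich Dcn at day 3 was 27.4 CPM in GFP and 44.5 CPM in TBX18. Barcodes with few genes, taken as a gauge of free RNA, were present at day 3 alone, and what they are was not tested. The part of free RNA in the virus-rich levels was not tested.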
